A study of Mus musculus with 24 samples.

Results

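The 20 cytoplasmic aminoacyl-tRNA synthetase genes on the array and 19 further genes tied to the transcription factor ATF4 and to amino acid supply were examined in mouse CD4+ T cells. They were taken by gene symbol from the deposited bead array table, with older symbols matched through the Entrez identifier, which gave 39 genes on 65 probes of 17872 genes on 25697 probes. Of these, 35 genes on 56 probes were detected on at least 1 array at a detection p of at most 0.02, and each of the 35 is described by its brightest such probe. Psph, Pycr1, Cbs and Pck2 were detected on no array and have no values here, and 23 of the 35 were detected on all 24 arrays.

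Aminoacyl-tRNA synthetases join each amino acid to its own tRNA, and they fall into class I and class II by the fold of their catalytic domain. ATF4 is a transcription factor whose protein is made mainly when the initiation factor eIF2alpha is phosphorylated, for example when amino acids run short, and its known targets include synthetases, asparagine synthetase, enzymes of serine and one-carbon metabolism, and the regulators Chac1, Trib3, Ddit3 and Sesn2. T cells that leave rest and begin to grow and divide make large amounts of protein and nucleotide, and amino acid and one-carbon supply is known to limit that step. An array of this kind reads mRNA only, so the amount and activity of ATF4 protein were not measured.

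CD4+CD62L+ T cells had been purified to 95% from spleens and lymph nodes of mice aged 4 to 6 weeks. WT mice were compared with mice lacking BAF180 (gene Pbrm1), a subunit of the PBAF chromatin remodeling complex, in T cells. The 4 cell states were resting naive cells, naive cells kept for 24 hours on anti-CD3 (1 ug/ml) and anti-CD28 (2 ug/ml), resting Th2 cells, and Th2 cells given PMA (50 ng/ml) and ionomycin (500 ng/ml) for 1.5 hours. Each state and genotype had 3 arrays, lettered A to C. Th2 cells had been grown from naive cells on the same antibodies with IL-4 (10 ng/ml), anti-IFN-gamma (10 ug/ml) and IL-2 (100 U/ml), so resting Th2 cells were themselves progeny of activated cells. Deletion was driven by CD4-Cre, which acts late in thymocyte development and also in CD8 lineage cells, and the labels name the strain Balb/c while the methods describe mice of mixed background. The p-values below measure the spread between these 24 arrays.

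Pbrm1 was lower in BAF180 KO cells in every state, with mean log2 intensities of 8.54 against 7.52 in resting naive cells, 8.57 against 6.94 in stimulated naive cells, 9.0 against 7.14 in resting Th2 cells and 8.29 against 6.87 in stimulated Th2 cells. Where its probe lies relative to the deleted exon was not determined. Between 8047 and 10689 probes were detected per array, and replicate arrays correlated at 0.949 to 0.989. All 5 measured T cell markers of 6 listed were detected on every array. All 7 measured myeloid markers of 8 listed were detected on every resting naive WT array, and their summed raw intensity was 754 to 3828 there, against 294 to 371 on stimulated naive WT arrays, where Lyz2, Cd14, Fcgr3 and S100a9 were on no array above background. B cell markers moved the same way, with sums of 506 to 994 on resting naive WT and 325 to 413 on stimulated naive WT arrays. In RNA from whole cultures, fewer cells of a type and less RNA per cell cannot be told apart.

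The letters TGATGNAA, which a C/EBP and ATF4 pair is known to bind, were searched on both strands in RefSeq promoter windows of GRCm38.p6, each 250 bases before and 50 after a transcription start. Windows were listed for 31 of the 39 genes and 10 of them (32.3%) held the letters, against 4.51% of 27025 genes with a window. The genes were chosen in part as known ATF4 targets, so the higher share is no independent result. They included Gars, Iars, Tars and Yars among the synthetases, and Asns, Chac1, Trib3, Pycr1 and Pck2 among the others. Stretches of 30 bases around the match are printed for some of the genes with large differences below, 5′ to 3′ on the gene's own strand, with the matched letters in capitals (TTNCATCA is the same motif read on the other strand).
Chac1 (chr2:119351038-119351067, + strand, match 193 bases before the start): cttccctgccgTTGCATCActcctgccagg
Asns (chr6:7693214-7693243, - strand, match 23 bases before the start): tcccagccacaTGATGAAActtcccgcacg
Tars (chr15:11399655-11399684, - strand, match 15 bases before the start): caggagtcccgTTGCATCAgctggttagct
Iars (chr13:49682126-49682155, + strand, match 7 bases after the start): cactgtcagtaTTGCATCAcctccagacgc
Trib3 (chr2:152344028-152344057, - strand, match 14 bases after the start): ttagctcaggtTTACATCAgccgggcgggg
These are matches of letters, and no binding was measured. Among WT naive cells the 8 measured genes with the letters had a median log2 difference of 2.50 on stimulation (0.52 to 4.69), and the 19 measured genes with a window that lacked them had a median of 1.44 (-0.99 to 3.93). Of the 8, Chac1, Tars and Yars were not detected in resting naive WT cells, so the size of their differences is not known. On stimulation of WT Th2 cells the medians were 1.13 (-0.08 to 2.33) with the letters and 0.75 (-2.90 to 2.00) without.

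The first comparison asks how these genes differed between resting naive cells and naive cells activated for 24 hours. In WT cells 29 of the 35 were higher after activation at an adjusted p below 0.05 and 1 was lower, where 23.3% of all 10419 genes were higher and 21.9% lower. Their median log2 difference was 1.63, on a scale where a difference of 1 is a 2-fold change, against -0.01 over all genes. Activated and resting arrays did not overlap for 30 of the 35, against 49.2% of all genes. The asparagine, serine and one-carbon enzymes and the regulators Chac1, Trib3 and Atf5 led, and 17 of 20 synthetases rose. Among the 23 genes detected on every array, 19 were higher and 1 lower. With genes not detected in a group set at their bound, the median was again 1.63. Of these, Cars, Yars, Tars and Cth lay below it already, so lowering them could not move it, and Chac1 stayed above it. Genes detected on some resting arrays were left as measured.

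Asns, which makes asparagine from aspartate and glutamine, read 4.59, 4.83 and 7.73 on resting naive WT arrays A, B and C, and was detected at rest only on array C. After activation it read 10.00, 10.57 and 10.65. All activated arrays lay above all resting ones, with a difference of 4.69 (SE 0.53, adjusted p = 4.75e-07). Resting array C stood apart from A and B, and without it the difference was 5.71. That array also had the highest myeloid marker sum, 3828 against 821 and 754, and the part of such cells in its Asns value was not tested. The other probes of Asns gave 3.85 and 0.93, both called.

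Psat1, the aminotransferase of serine synthesis, had the next largest difference among the enzymes. It rose from 6.89, 7.22 and 7.44 to 10.43, 11.49 and 11.43, a difference of 3.93 (SE 0.25, adjusted p = 1.32e-10). Mthfd2, the mitochondrial enzyme that oxidizes one-carbon units on folate, read 5.12, 4.34 and 5.10 at rest, detected on arrays A and C, and 6.83, 7.77 and 7.82 after activation, a difference of 2.62 (SE 0.31, adjusted p = 7.24e-07). Shmt2, which moves a carbon from serine to folate in mitochondria, rose from 5.91, 5.31 and 5.58 to 7.90, 8.17 and 8.14, a difference of 2.47 (SE 0.21, adjusted p = 9.02e-09). In each of these genes the activated and resting arrays did not overlap. Phgdh, the entry enzyme of serine synthesis, was higher by 2.38 (SE 0.45, adjusted p = 0.000214), so all 4 measured serine and one-carbon genes of 5 listed rose.

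Aldh18a1, which makes the proline precursor from glutamate, rose from 6.63, 6.00 and 6.44 to 7.72, 7.69 and 7.99, by 1.44 (SE 0.22, adjusted p = 1.6e-05). Cth, which forms cysteine in the transsulfuration pathway, was detected on no resting naive WT array and on all activated ones, at 5.28, 5.93 and 5.86. Its level after activation was at least 1.78-fold higher. A bound of this kind sets the mean of the detected group against the lowest signal among detected probes on each array of the other, or the gene's own value where that was higher. The group means were 5.69 and 4.24 on the log2 scale (adjusted p = 5.02e-06).

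Of the synthetases, 9 of 10 in class I and 8 of 10 in class II rose, with medians of 1.57 and 1.46. Isoleucyl-tRNA synthetase Iars rose from 6.56, 6.40 and 6.69 to 8.71, 9.32 and 9.53, by 2.64 (SE 0.28, adjusted p = 1.58e-07). Leucyl-tRNA synthetase Lars rose from 6.54, 6.67 and 6.10 to 8.30, 8.45 and 8.31, by 1.92 (SE 0.26, adjusted p = 5.07e-06). Arginyl-tRNA synthetase Rars rose from 7.27, 7.33 and 7.60 to 9.32, 9.35 and 9.17, by 1.88 (SE 0.12, adjusted p = 1.26e-10). These enzymes sit in the multi-synthetase complex, and 7 of the 8 complex members on the list rose, the exception being Qars.

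In class II the largest rise was that of alanyl-tRNA synthetase Aars, from 7.37, 7.14 and 6.81 to 9.37, 9.74 and 9.30, by 2.36 (SE 0.22, adjusted p = 3.45e-08). Glycyl-tRNA synthetase Gars rose from 11.09, 11.16 and 11.03 to 13.02, 12.75 and 12.63, by 1.71 (SE 0.14, adjusted p = 3.14e-09). Asparaginyl-tRNA synthetase Nars rose from 6.49, 5.85 and 6.11 to 7.07, 8.38 and 8.05, by 1.68 (SE 0.34, adjusted p = 0.000351), with array A the lowest of the activated arrays. The other called synthetases rose by 0.51 (Cars) to 1.80 (Mars). Tars, Yars and Cars were not detected in resting naive WT cells, and their bounds were at least 1.52-fold higher for Tars and at least 1.01-fold for Yars, while none could be set for Cars. Not called were Qars at 0.11, Hars at 0.15 and Farsa at -0.15 (adjusted p 0.656, 0.583 and 0.799), while Farsb, which codes for the partner subunit of Farsa in phenylalanyl-tRNA synthetase, rose by 1.65 (adjusted p = 1.71e-06).

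**Figure D1:**
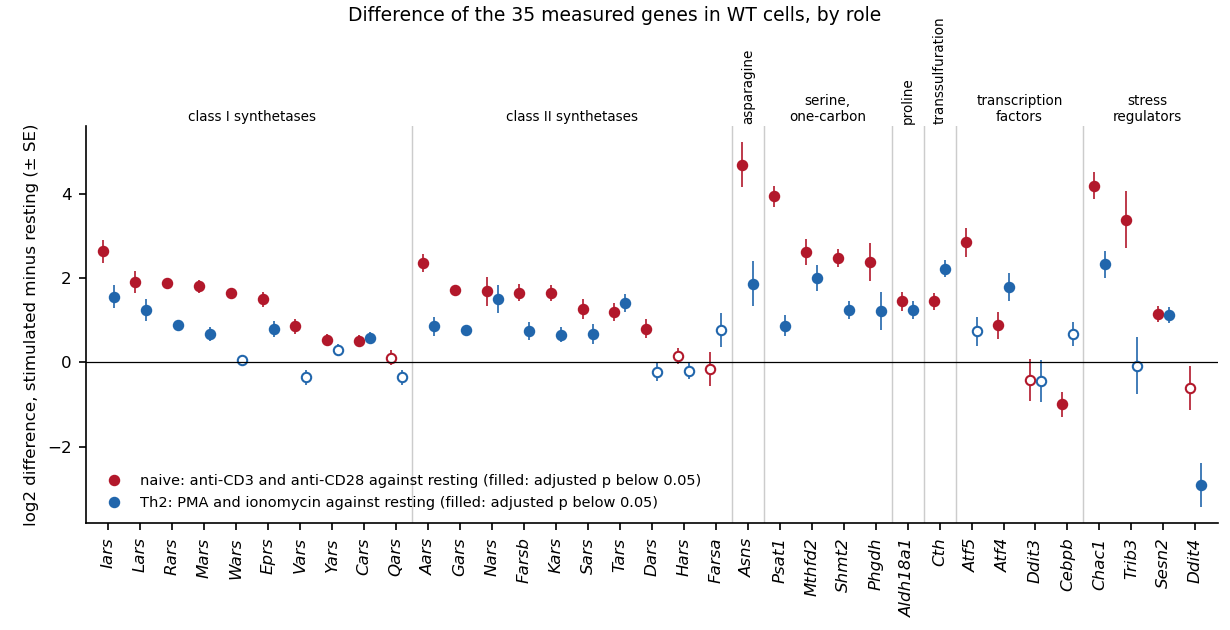
Log2 difference between stimulated and resting WT cells for each of the 35 measured genes, grouped by role on the horizontal axis, with bars of 1 SE and 3 arrays per group. Naive cells (red) were given anti-CD3 and anti-CD28, Th2 cells (blue) PMA and ionomycin, and filled points passed an adjusted p below 0.05. Asns, Chac1, Psat1 and Trib3 lie highest in naive cells, and Ddit4 in Th2 cells lies lowest, at -2.90.

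Among the regulators, the size of the difference varied more. Chac1, which degrades glutathione, was detected on no resting naive WT array (4.27, 4.24 and 4.46) and read 8.27, 8.43 and 8.80 after activation, at least 12.5-fold higher (adjusted p = 2.03e-09). Trib3, a pseudokinase that binds ATF4, read 4.36, 4.83 and 4.83 at rest, detected only on array C, and 8.18, 8.13 and 7.86 after activation, a difference of 3.38 (SE 0.67, adjusted p = 0.000321). Its other kept probes gave 1.05 and 0.87, of which the first was called. Atf5, a relative of ATF4, read 4.28, 4.90 and 5.02 at rest, detected on arrays B and C, and 7.89, 7.58 and 7.28 after activation, a difference of 2.85 (SE 0.34, adjusted p = 1e-06). None of these 3 genes had overlapping groups.

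Sesn2, which signals leucine shortage to the growth regulator mTORC1, rose from 5.82, 5.68 and 5.47 to 7.10, 6.78 and 6.54, by 1.15 (SE 0.18, adjusted p = 3.46e-05). Its other probe, detected on 20 arrays, gave 0.20 and was not called (adjusted p = 0.459). The mRNA of Atf4 itself differed less, from 8.10, 7.88 and 8.15 to 8.44, 9.36 and 8.97, a difference of 0.88 (SE 0.33, adjusted p = 0.0366). That call was lost without any 1 of resting arrays A, B or C or activated arrays B or C, with differences of 0.66 to 0.93 and adjusted p of 0.0515 to 0.163. A further Atf4 probe gave 1.27 (adjusted p = 0.0106).

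The only gene called lower was Cebpb, a partner factor of ATF4, which went from 10.26, 9.81 and 10.27 to 9.29, 8.94 and 9.14, a difference of -0.99 (SE 0.29, adjusted p = 0.00859). Myeloid cells are known to carry much Cebpb mRNA, and the myeloid marker Lyz2 fell alongside it from a mean of 9.76 to 4.23 with no array detected after activation. The part of such cells in the Cebpb value was not tested. Ddit3 (CHOP), a factor of late stress responses, read 7.90, 8.11 and 7.22 at rest and 8.06, 7.20 and 6.69 after activation, and the difference of -0.43 was not called (adjusted p = 0.531). Ddit4, an inhibitor of mTORC1, read 7.35, 8.36 and 9.89 at rest and 7.68, 7.70 and 8.41 after activation, a difference of -0.60 (adjusted p = 0.39). Without resting array C, the array with the high myeloid sum, the Ddit4 difference was 0.08.

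In BAF180 KO cells 26 of the 35 genes were higher after activation and 1, Cebpb, lower (22.1% and 21.3% of all genes), with a median of 1.41, and the groups of 28 did not overlap (49.2% of all genes). Asns rose by 4.70, Chac1 was at least 11.9-fold higher, and Psat1 rose by 3.56. Vars, Cars and Yars, called in WT cells, had differences of 0.40, 0.33 and 0.29 in KO cells (adjusted p 0.0791, 0.0577 and 0.108). Cars and Yars were detected on no resting naive array of either genotype and on 1 activated KO array each. The size of their differences is therefore not known. Whether the Vars difference departs from that in WT is tested further on. With the lettered arrays as a block, Ddit3 was also called lower in KO cells.

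The second comparison asks what 1.5 hours of PMA and ionomycin did in differentiated Th2 cells. In WT cells 23 of the 35 genes were higher and 1 lower, where 12.5% of all genes were higher and 15.9% lower, and the median was 0.76 against -0.01 over all genes. The groups did not overlap for 25 of the 35, against 41.1% of all genes. Chac1, Cth, Mthfd2, Asns and Atf4 led, and 13 of 20 synthetases rose. Ddit4 fell. Among the genes detected on all arrays, 16 of 23 were higher and 1 lower.

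Atf4 mRNA rose from 8.61, 8.98 and 8.82 to 10.81, 10.59 and 10.34, by 1.78 (SE 0.33, adjusted p = 0.000307), and its further probe gave 1.80. Chac1 rose from 6.83, 6.63 and 5.76 to 8.96, 9.32 and 7.92, by 2.33 (SE 0.32, adjusted p = 1.15e-05). Sesn2 rose from 6.15, 6.38 and 6.18 to 7.53, 7.24 and 7.31, by 1.12 (SE 0.18, adjusted p = 8.5e-05). In these regulators stimulated and resting arrays did not overlap. Chac1 was lowest on array C in both groups.

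Ddit4 went the other way, from 9.55, 9.82 and 9.73 to 6.77, 7.59 and 6.04, and fell by 2.90 on the log2 scale (SE 0.53, adjusted p = 0.000257), a 7.45-fold difference. Trib3 read 8.63, 9.24 and 6.57 at rest and 8.74, 9.07 and 6.40 after stimulation, so that array C was low in both groups and the difference of -0.08 was far smaller than the spread (SE 0.67, adjusted p = 0.968). Without the stimulated array C that difference was 0.75, without resting array A or B it was 0.17 or 0.47, and without resting array C it was -0.87, none of them called. Ddit3 read 7.85, 8.43 and 7.30 at rest and 7.98, 8.09 and 6.19 after stimulation, a difference of -0.44 (adjusted p = 0.614) that was 0.17 without stimulated array C. Its other probe, detected on all 24 arrays, gave 0.35 and was not called either (adjusted p = 0.622).

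Atf5 and Cebpb were not called, and both calls turned on single arrays. Atf5 read 8.31, 7.61 and 6.49 at rest and 8.52, 8.54 and 7.59 after stimulation, a difference of 0.74 (adjusted p = 0.123). It was called without resting array A, at 1.16 (adjusted p = 0.0131), or without stimulated array C, at 1.05 (adjusted p = 0.0358). Cebpb read 8.65, 8.51 and 7.69 at rest and 9.0, 9.53 and 8.32 after stimulation, a difference of 0.67 (adjusted p = 0.0986). It was called with the lettered arrays as a block (adjusted p = 0.0339) or without stimulated array C, at 0.98 (adjusted p = 0.0167). Myeloid markers were near background here, with Lyz2 detected on no Th2 array.

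Cth showed the clearest separation among the enzymes, from 4.39, 4.25 and 4.88 at rest, detected only on array C, to 7.08, 6.51 and 6.60, a difference of 2.22 (SE 0.20, adjusted p = 4.18e-08). Mthfd2 rose from 6.38, 6.55 and 6.25 to 8.47, 8.69 and 8.0, by 2.00 (SE 0.31, adjusted p = 4.3e-05). Shmt2 rose from 6.28, 6.76 and 6.81 to 8.05, 8.05 and 7.49, by 1.25 (SE 0.21, adjusted p = 0.000113). Neither gene had overlapping groups.

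Asns rose from 9.51, 9.84 and 9.27 to 11.69, 11.76 and 10.75, by 1.86 (SE 0.53, adjusted p = 0.0116), and all 3 of its probes were called. Without stimulated array B its difference was 1.68 and its adjusted p 0.0506. Aldh18a1 rose from 7.35, 7.21 and 6.97 to 8.48, 8.84 and 7.95, by 1.24 (SE 0.22, adjusted p = 0.000163). Phgdh read 6.82, 7.41 and 6.93 at rest and 8.92, 8.94 and 6.97 after stimulation, so stimulated array C stayed at the resting level. Its difference of 1.23 (SE 0.45, adjusted p = 0.0482) was no longer called without any of the 3 resting arrays or without stimulated array A or B, at 0.90 to 1.41 and adjusted p of 0.0528 to 0.225. Psat1 rose by 0.87 (SE 0.25, adjusted p = 0.0118).

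**Figure D2:**
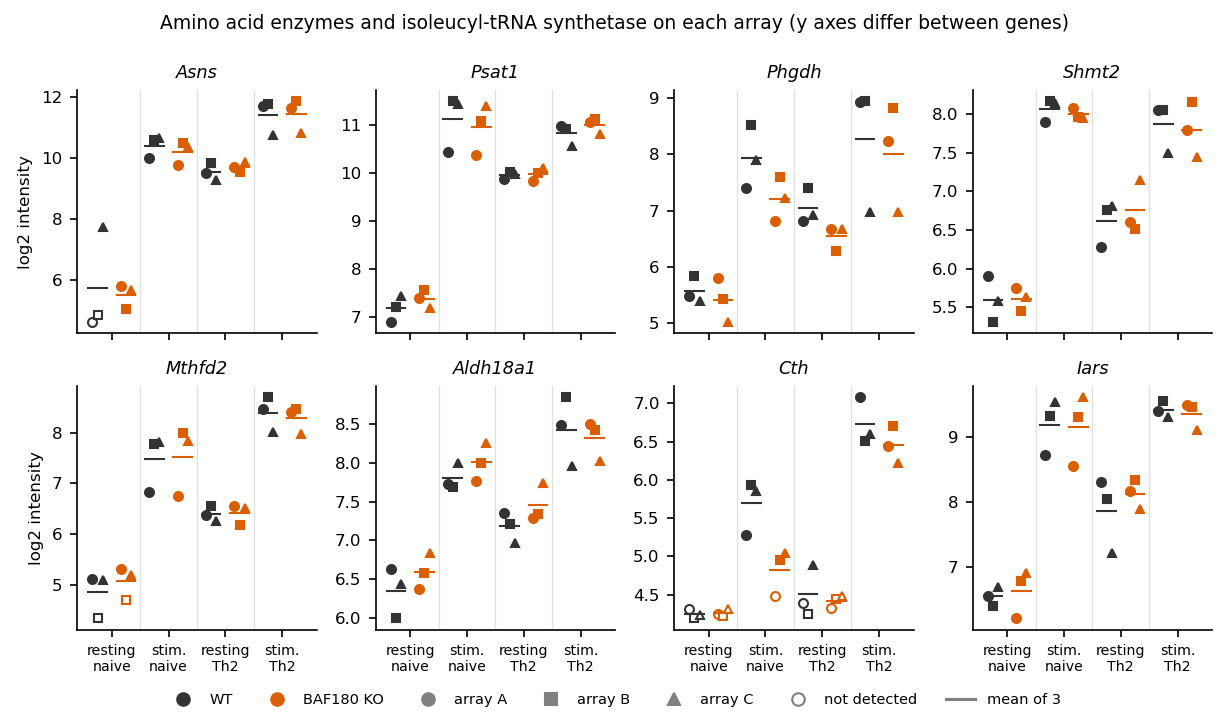
Log2 intensity on each of the 24 arrays for 7 amino acid enzymes and Iars, with cell states on the horizontal axis, WT in black, BAF180 KO in orange, symbols for the arrays lettered A, B and C, open symbols where the probe was not detected, and a line at the mean of 3 arrays. Asns on resting naive WT array C, at 7.73, stands above the other resting naive arrays, and Phgdh on stimulated Th2 array C lies near the resting arrays in both genotypes.

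Among synthetases the largest rises were those of Iars, from 8.30, 8.05 and 7.22 to 9.40, 9.54 and 9.30, by 1.56 (SE 0.28, adjusted p = 0.000192), and of Nars, from 6.86, 6.47 and 6.44 to 8.29, 8.31 and 7.69, by 1.51 (SE 0.34, adjusted p = 0.00174). Threonyl-tRNA synthetase Tars, detected at rest on arrays A and C, rose from 4.93, 4.64 and 5.06 to 6.26, 6.20 and 6.37, by 1.40 (SE 0.21, adjusted p = 4.16e-05), and its other probe, detected on 3 arrays, gave 0.46 (adjusted p = 0.00811). Lars rose from 6.67, 7.08 and 7.58 to 8.53, 8.33 and 8.18, by 1.24 (SE 0.26, adjusted p = 0.00107). None of these overlapped.

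Rars rose by 0.89 (SE 0.12, adjusted p = 7.73e-06) and Aars by 0.86 (SE 0.22, adjusted p = 0.00563). In class I 6 of 10 rose and in class II 7 of 10. The genes not called were Farsa at 0.76, Yars at 0.29, Wars at 0.05, Hars at -0.20, Dars at -0.23, Vars at -0.35 and Qars at -0.35. Yars was detected on no resting Th2 WT array, so its rise is known only as a bound of at least 1.05-fold. Hars lay close to background. With the lettered arrays as a block Farsa was called as well.

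In BAF180 KO Th2 cells 22 of the 35 genes were higher and Ddit4 lower (11.7% and 15.4% of all genes), with a median of 0.77, and the groups of 28 did not overlap (43.5% of all genes). Cth was at least 3.68-fold higher, having been detected on no resting KO array. Mthfd2 rose by 1.86, Atf4 by 1.84 and Chac1 by 1.58, while Ddit4 fell by 2.83. With the lettered arrays as a block Mars was called too.

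**Figure D3:**
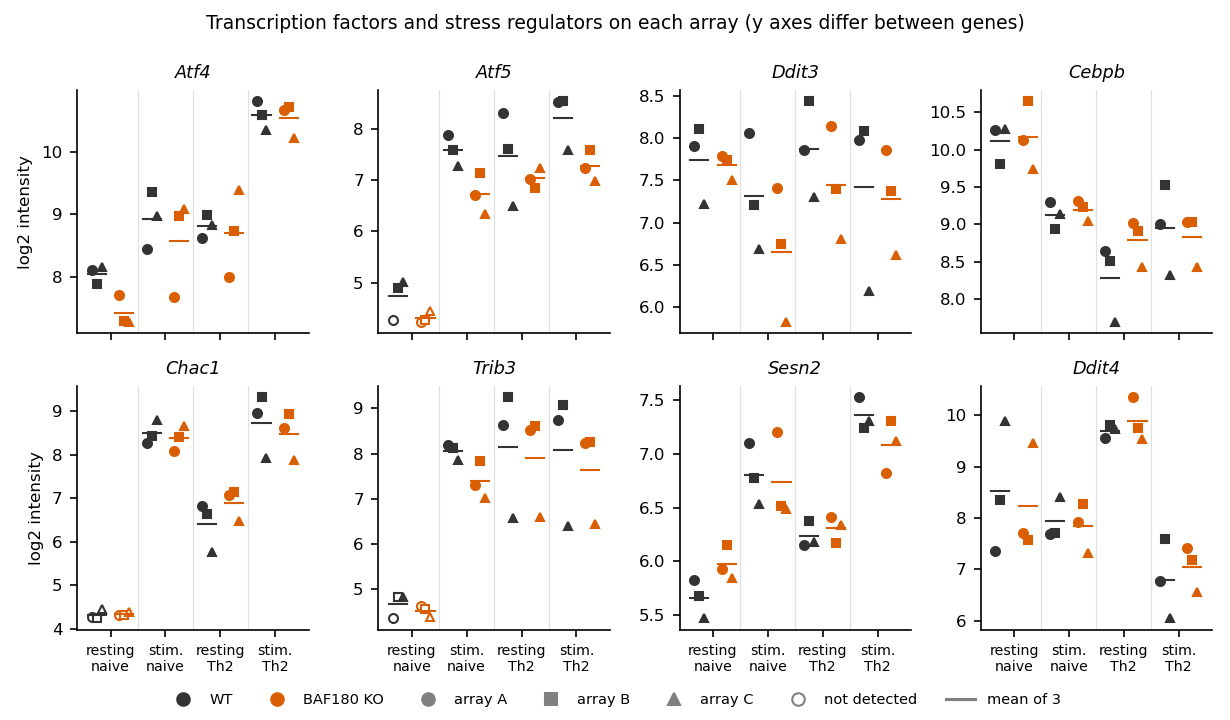
Log2 intensity on each of the 24 arrays for 4 transcription factors (upper row) and 4 stress regulators (lower row), drawn as in the plot of the enzymes. Chac1 was detected on no resting naive array. Th2 arrays lettered C (triangles) lie lowest for Trib3 in all 4 Th2 groups, and Ddit4 is lowest in stimulated Th2 cells.

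The 2 stimulations differed in agent, length and cell type, which cannot be told apart, but the difference between their effects in WT cells was tested in the same fit. It was called for 19 of the 35 genes, 17 with the larger value in naive cells and 2 with the larger value in Th2 cells (14.4% and 11.7% of all genes). The naive effect was larger by 3.46 for Trib3 (SE 0.95, adjusted p = 0.0098), 3.07 for Psat1 (SE 0.35, adjusted p = 1.58e-06) and 2.83 for Asns (SE 0.75, adjusted p = 0.00815). Trib3 and Asns were above background at rest on naive WT array C alone. The other probes of Asns rose by 3.85 and 0.93 in naive cells and by 2.24 and 1.96 in Th2 cells. By the probe at 0.93 the larger rise was thus that in Th2 cells. The other kept probes of Trib3 gave 1.05 and 0.87 in naive cells and 0.15 and 0.19 in Th2 cells. Cebpb differed by -1.66 (adjusted p = 0.00482), with the higher value in Th2 cells. Chac1 and Cth are among the genes called, but neither was detected in resting naive WT cells, so their naive effect is known only as a bound and no size of the difference is given. The synthetases with the largest gap were Wars at 1.58 (adjusted p = 2.85e-07), which charges tryptophan, and Aars at 1.50 (adjusted p = 0.00117). For Atf4 the difference of -0.90 was not called (adjusted p = 0.174).

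Resting Th2 cells were set against resting naive cells to see which of these genes stayed high after differentiation. This comparison shares its naive arrays with the first one, and its Th2 arrays with the second. In WT cells 20 of the 35 were higher and Cebpb lower (17.9% and 17.6% of all genes), with a median of 0.67 against 0.00, and the groups of 23 did not overlap (43.6% of all genes). Asns was higher by 3.82 (SE 0.53, adjusted p = 1.17e-05), Trib3 by 3.48 (SE 0.67, adjusted p = 0.000407), Psat1 by 2.77 (SE 0.25, adjusted p = 3.36e-08) and Atf5 by 2.74 (SE 0.34, adjusted p = 3.03e-06). By their other kept probes Asns differed by 2.60 and 0.15, and Trib3 by 1.03 and 0.825. Both genes were above background in resting naive WT cells on array C alone. Chac1 was at least 2.92-fold higher. Of the synthetases 10 of 20 were called higher, led by Aars at 1.57 and Wars at 1.40.

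Atf4 mRNA, by contrast, differed by 0.76 (SE 0.33) with an adjusted p of 0.0824. Cebpb differed by -1.83 (SE 0.29, adjusted p = 5.3e-05), and the myeloid marker sum was 276 to 300 on resting Th2 WT arrays against 754 to 3828 on resting naive ones. In KO cells 19 genes were higher and 1 lower (18.2% and 17.5% of all genes), and the groups of 26 did not overlap (50% of all genes). With the lettered arrays as a block, Farsa was called lower in Th2 cells in both genotypes, at -0.70 in WT and -0.91 in KO cells. Sars and Phgdh were then called higher in KO cells, at 0.60 and 1.13.

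Against naive cells activated for 24 hours, resting Th2 WT cells had 21 of the 35 genes lower and 1 higher (12.1% and 11.4% of all genes), with a median of -0.79, and the groups of 26 did not overlap (36.2% of all genes). Chac1 was lower by 2.10 (SE 0.32, adjusted p = 5.64e-05), Shmt2 by 1.45 (SE 0.21, adjusted p = 3.29e-05) and Iars by 1.33 (SE 0.28, adjusted p = 0.00124). Ddit4 was higher by 1.77 (SE 0.53, adjusted p = 0.019). Trib3, Atf5 and Atf4 differed by 0.09, -0.11 and -0.12, with adjusted p of 0.893 to 0.966. Without all 4 Th2 arrays lettered C, 15 genes were lower and 2 higher. With the lettered arrays as a block Tars was gained and Aldh18a1 lost.

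Th2 arrays lettered C held the lowest value of their group in all 4 Th2 groups for 8 of the 35 genes, against 7.04% of all genes. The 8 were Aars, Cebpb, Chac1, Ddit3, Eprs, Farsa, Iars and Trib3. Trib3 read 6.57, 6.59, 6.40 and 6.45 on the arrays lettered C and 8.24 to 9.24 on the other 8 Th2 arrays. No gene of the 35 had its highest value on array C in all 4 Th2 groups, against 8.17% of all genes. The summed raw intensity of the 6 B cell markers was 562, 1137, 484 and 591 on the arrays lettered C and 240 to 344 on the other Th2 arrays. Cd8b1, the measured CD8 marker, read a raw intensity of 473, 752 and 445 on array C of resting KO, stimulated WT and stimulated KO Th2 cells against 94.7 to 247 on arrays A and B of those groups, while resting WT Th2 cells had 321 on C against 347 on A and 171 on B. The part of other cells in the low values on array C was not tested.

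Lists of related genes were counted against all genes, of which 23.3% were called higher and 21.9% lower on naive activation, and 12.5% and 15.9% on Th2 stimulation. Of 3 scaffold proteins of the multi-synthetase complex, all 3 rose on naive activation, Eef1e1 by 2.40, Aimp2 by 2.38 and Aimp1 by 0.82, and Eef1e1 (2.57) and Aimp2 (0.86) also rose in stimulated Th2 cells. Of the mitochondrial synthetases 4 of 12 measured were called higher on naive activation (median 0.15, led by Rars2 at 1.65) and 1 higher and 2 lower on Th2 stimulation (median -0.14), counts near the shares of all genes. Of 12 further ATF4 partners and targets 7 were higher and 1 lower in activated naive cells, with Eif4ebp1, a translation inhibitor, at 3.57, the leucine transporter Slc7a5 at 2.68 and the aminotransferase Gpt2 at 1.61. In stimulated Th2 cells 8 of the 12 were higher and none lower, led by the factor Atf3 at 2.27 (adjusted p = 0.0207).

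Among genes of other stress response lists, Ppp1r15a, which directs dephosphorylation of eIF2alpha, was lower by 3.46 on naive activation (adjusted p = 1.48e-08) and higher by 1.49 in stimulated Th2 cells (adjusted p = 0.000825). The chaperone gene Dnajb9 was lower by 2.55 and then higher by 1.48. Ppp1r15a belongs to a list of eIF2alpha kinases and phosphatase subunits with 5 measured genes. Of these, 0 were called higher and 2 lower on naive activation, with a median of 0.04. On Th2 stimulation 1 was called higher and 0 lower, with a median of -0.23. Of 7 measured genes of the other unfolded protein response arms 2 were called lower and 0 higher on naive activation (21.9% and 23.3% of all genes), with a median of 0.29, and 2 were called higher and 0 lower on Th2 stimulation (12.5% and 15.9%), with a median of 0.28. Shares this near those of all genes are no result about the list. Of 6 measured further one-carbon and proline enzymes 4 rose in activated naive cells (23.3% of all genes), with Shmt1 at 2.37, Mthfd1 at 2.08 and Pycr3 at 2.04.

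The last comparison asks whether loss of BAF180 changed these genes. A difference was called by thresholds from the study's methods, a Z-ratio beyond 1.5, a false discovery rate below 0.3 and p below 0.05. The p and rate were taken from limma, and the Z-ratio was the log2 difference divided by its standard deviation over all kept probes. The methods also ask for a mean signal above 0, which was not applied beyond the detection filter. In resting naive cells 0 of the 35 were called (0.758% of all genes), in stimulated naive cells 1 (0.115%), in resting Th2 cells 0 (0.106%) and in stimulated Th2 cells 0 (0.096%). At an unadjusted p below 0.05 the numbers were 1, 3, 0 and 2 of 35, where 7.2%, 2.31%, 3.58% and 2.87% of all genes passed. With WT and KO arrays of a letter paired within the state, 4, 7, 4 and 4 of 35 passed that p, where 11.3%, 5.05%, 7.22% and 5.31% of all genes did. The 7 in stimulated naive cells were all lower in KO cells, and were Eprs, Lars, Phgdh, Cth, Atf5, Ddit3 and Trib3, with adjusted p of 0.0996 for Cth and 0.385 to 0.884 for the others (limma). WT and KO arrays did not overlap for 5, 5, 2 and 2 of the 35, against 7.99%, 6.59%, 10.3% and 7.47% of all genes. Medians were 0.02, -0.12, 0.03 and -0.06.

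The 95% intervals of these differences, from the fit without pairs, had a median width of 0.90, so that small effects could not be told from 0. Between 26 and 28 of the 35 intervals in each state lay within a difference of 1 either way. The widest were those of Trib3, which reached from -2.06 in stimulated naive cells.

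**Figure D4:**
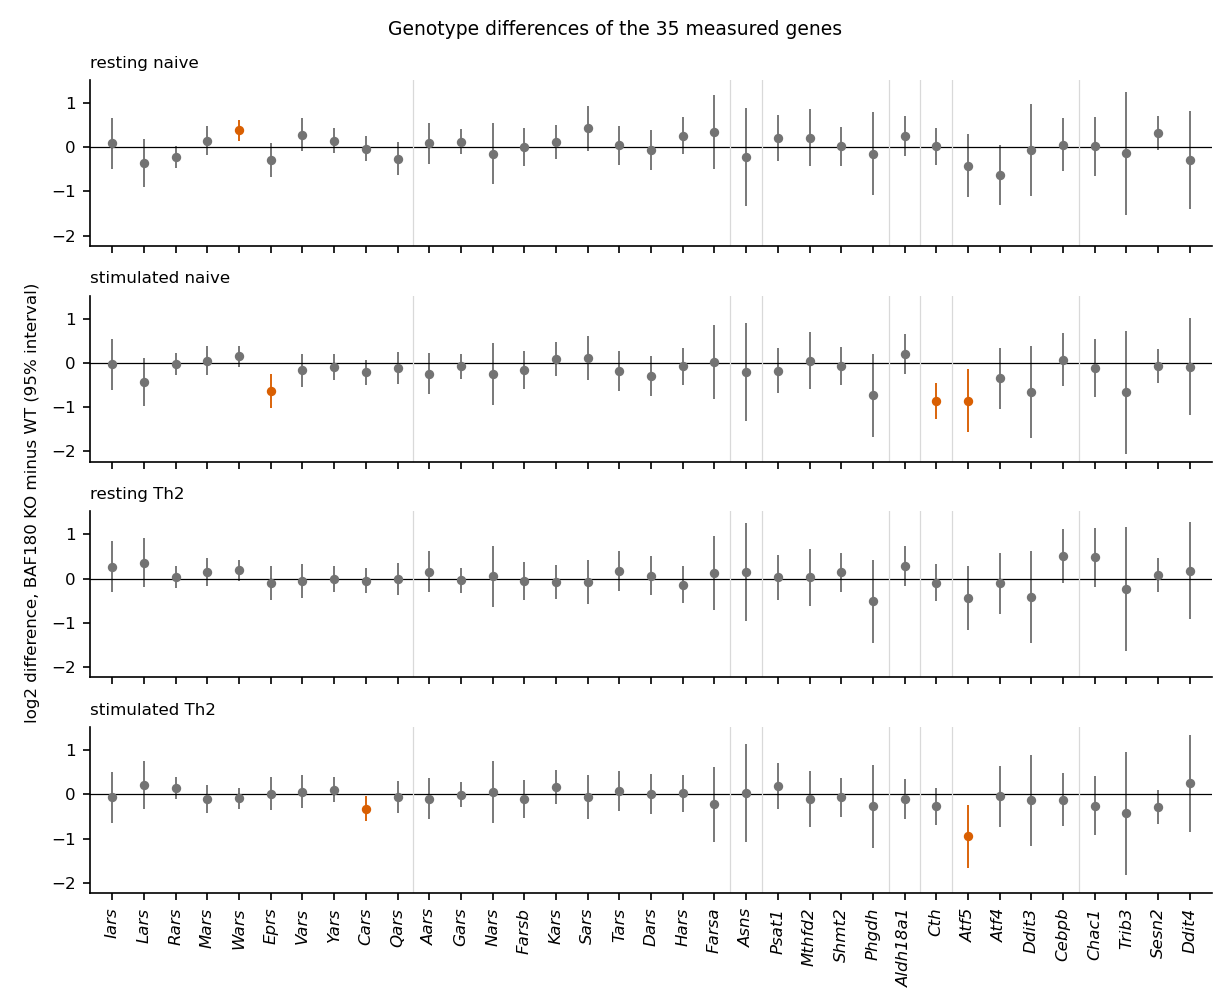
Log2 difference between BAF180 KO and WT cells (points) with 95% intervals (bars) for each of the 35 genes, 1 panel per cell state, 3 arrays per group and genotype, with intervals that leave out 0 in orange. Those are Wars in resting naive cells, Eprs, Cth and Atf5 in stimulated naive cells, and Cars and Atf5 in stimulated Th2 cells. Cars was close to background in stimulated Th2 cells and was detected there on 1 KO array.

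The gene called was Cth in stimulated naive cells. It read 5.28, 5.93 and 5.86 on WT arrays and 4.48, 4.95 and 5.05 on KO arrays, where array A was not detected. The difference was -0.87 (SE 0.20, unadjusted p = 0.000281 and adjusted p = 0.291 by limma). The groups did not overlap, but the call was lost without any of 4 arrays (WT B or C, KO A or B), at differences of -0.69 to -0.92 and adjusted p of 0.671 to 1. With WT and KO arrays of a letter paired within the state, the adjusted p was 0.0996 (limma), where 0.259% of all genes were called. Cth was detected on no resting naive array of either genotype, so whether activation raised it less in KO cells could not be tested apart from this difference. In stimulated Th2 cells Cth differed by -0.27 (unadjusted p = 0.184).

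Eprs, which charges both glutamate and proline, was lower in stimulated naive KO cells by 0.64, with WT arrays at 8.66, 9.02 and 8.55 and KO arrays at 8.05, 7.94 and 8.31 (unadjusted p = 0.0022, adjusted p = 1). Atf5 differed by -0.86 in the same cells, with WT arrays at 7.89, 7.58 and 7.28 and KO arrays at 6.71, 7.13 and 6.35 (unadjusted p = 0.0213, adjusted p = 1). Atf5 also differed by -0.95 in stimulated Th2 cells, from 8.52, 8.54 and 7.59 to 7.24, 7.59 and 6.98, where the groups met at 7.59 (unadjusted p = 0.012, adjusted p = 1). The groups of Eprs and of Atf5 in naive cells did not overlap, but neither gene met the criteria.

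In resting naive cells tryptophanyl-tRNA synthetase Wars read 6.40, 6.59 and 6.55 in WT and 6.97, 6.98 and 6.72 in KO cells, a difference of 0.38 (SE 0.11, unadjusted p = 0.0029, adjusted p = 0.352). It was called when resting naive WT array B or KO array C was left out (0.42 and 0.46, adjusted p 0.293 and 0.172) or with arrays paired within the state (adjusted p = 0.208), and the mean of its 4 probes gave -0.01. Atf4 read 8.10, 7.88 and 8.15 in WT and 7.70, 7.28 and 7.26 in KO cells, a difference of -0.63 (unadjusted p = 0.0701, adjusted p = 0.8). With arrays paired within the state it was called too (adjusted p = 0.271), in a fit that called 4.42% of all genes. Rars differed by -0.22 (unadjusted p = 0.0723).

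In resting Th2 cells the lowest unadjusted p by limma were those of Cebpb, Wars and Chac1, with differences of 0.51, 0.18 and 0.48 and p of 0.0955, 0.114 and 0.146. Chac1 read 6.83, 6.63 and 5.76 in WT and 7.07, 7.13 and 6.47 in KO cells, higher in KO on each lettered pair, and was called with arrays paired within the state (adjusted p = 0.224), where 1.13% of all genes were. In stimulated Th2 cells Cars and Sesn2 differed by -0.33 and -0.28 (unadjusted p = 0.0257 and 0.146). Cars was close to background there, with means of 4.83 in WT and 4.51 in KO cells, and was detected on 1 KO array.

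The test of whether activation or stimulation acted differently in KO and WT cells called 0 of the 35 genes in naive cells and 0 in Th2 cells (0.0096% and 0% of all genes, limma). At an unadjusted p below 0.05 there were 1 (Cth, which was not detected at rest in either genotype) and 0. With arrays paired within the state there were 2 (Cth and Vars) and 1 (Chac1, with a difference of -0.74 between the effects, unadjusted p = 0.000647 and adjusted p = 0.768 by limma), none of them called. In naive cells the difference between the 2 effects was below 0 for 29 of the 35 genes, with a median of -0.19. Over all genes that difference was above 0 for 50.05%, with a median of 5e-04. The 35 genes share the same arrays and are not independent. Cars, Yars, Tars, Cth and Chac1 were detected in resting naive cells of neither genotype. In Th2 cells the difference was below 0 for 21 of the 35, with a median of -0.10. Over all genes it was above 0 there for 49.6%, with a median of -0.0023.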

How the data were processed

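Total RNA of 24 samples was hybridized to Illumina MouseRef-8 v2 bead arrays. Per the labels and methods, the authors extracted the bead intensities with GenomeStudio (1.6.0 in the submitters' processing notes), and the deposited table gives, probe by probe, the raw intensity and the detection p-value of every array, without background correction or normalization. Their Z-scores were not used here. Intensities were normalized with neqc (offset 16, background estimated from the detection p) in limma 3.58.1 under R 4.3.3, and 14246 probes passed the filter (detection p up to 0.02 on 1 array or more). Old gene names were updated through the Entrez identifier or RefSeq accession, and 322 probes kept the file's name.

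A limma fit (lmFit, contrasts.fit, eBayes) with 8 group means and 16 residual degrees of freedom gave two-sided p-values, adjusted by Benjamini-Hochberg over all kept probes. Cell states were compared at an adjusted p below 0.05, and genotypes by the methods' thresholds for Z-ratio, false discovery rate and p. Genes were counted by their brightest kept probe. Values per array are given for the 8 regulators and, in each other role, for up to 3 called genes with the largest difference per stimulation; for the genotype, for genes called or with the 3 lowest p. The genes, lists and tests were chosen with earlier results of these data known. Pooled over the states, WT and KO arrays of a letter deviated together (pooled correlation 0.30, 0.14 and 0.52 for A, B and C). Within single states the correlation was as low as 0.0474, -0.0026 and 0.3469, so this did not hold in every state. The study's 3 pairs of mice allow the letters to be read as pairs. The main fit, with its genotype calls and intervals, used no pairs. Letters entered only the fits named as blocked or paired, and the paired fit was added after seeing the data. With 3 arrays in a group, precision is limited by their number. No replicate pair shared more than 0.973% of its intensities. The fit was tested on simulated data. The promoter stretch of another matching gene is not reported here.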

Additional observations from a re-analysis of the deposited data

How the results depend on the processing

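Counts of genes called between cell states stayed within 1.5 times the reported count in every alternative run: neqc offset 50, neqc on kept probes (added after seeing the data), no detection filter, the mean of a gene's probes, Z-scores, only the arrays of the comparison, the mouse as a random block, the replicate block and leaving out arrays. Leaving out 1 array in turn gave 29 to 30 genes for naive activation in WT and 24 to 29 in KO, 20 to 26 and 17 to 23 for Th2 stimulation, 17 to 22 and 17 to 22 for Th2 against naive cells, 15 to 20 for Th2 against activated naive cells and 15 to 19 for the difference between the stimulations. Leaving out the 4 Th2 arrays lettered C, chosen after seeing the data, gave 24 for Th2 stimulation in WT and 24 in KO, and 19 and 19 for Th2 against naive cells. The replicate block gave 30 and 28 for naive activation in WT and KO, where it called 47.3% and 45.5% of all genes. For Th2 stimulation it gave 26 and 24 (30.5% and 29.2% of all genes), and for Th2 against naive cells 22 and 23 (38.3% and 38.8%). It changed no genotype call.

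Genotype calls were less stable. In resting naive cells, where 0 were called, 1 was called with offset 50 or with no detection filter, 2 with the replicate block within each state (added after seeing the data), and 0 to 1 without 1 array. In stimulated naive cells the 1 call became 0 with an adjusted p below 0.05, offset 50, neqc within the cell state, no detection filter, only the arrays of the comparison or Z-scores, and 0 to 1 without 1 array. In resting Th2 cells the replicate block within each state gave 1. For Cth in stimulated naive cells the difference was -0.46 with offset 50 and -0.50 with Z-scores. Directions turned for Trib3 in Th2 stimulation with the mean of its probes (0.0875) and without 1 array (-0.866 to 0.753), for Ddit3 in Th2 stimulation (-0.776 to 0.17) and Ddit4 in naive activation (-1.19 to 0.0774) without 1 array, none of them called, and for Wars in resting naive cells with the mean of its probes (-0.0144). The cause was not tested. Chips as a block were not run, since the headers name no chip. Genes near background have no order below it.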
